A study of Mus musculus with 6 samples.

Results

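Pdcd1 and Havcr2 encode the inhibitory receptors PD-1 and TIM-3 and were followed in every library of an RNA-seq series on CD8+ T cells sorted from mouse tumours. The 2 genes were chosen by name, out of 6469 for which the authors deposited values. Pdcd1 (gene ID 18566) comes from the deposited gene table, and Havcr2 from a small notes sheet beside it, since it stands outside that table. The tumours grew from MC38, a colon carcinoma line of the mouse, on C57/B6J hosts labelled WT. The αPD-1-IL-15-R group (3 libraries) was given 30 µg of this anti-PD-1 antibody with concealed IL-15 intraperitoneally on day 14 and again on day 17, with sorting 48 hours past the second dose. The PBS group (3 libraries) was given PBS. No group received anti-PD-1 or IL-15 alone, the age of the mice is not given in the labels, and nothing in them says whether a library is 1 mouse or a pool, so p-values measure only the spread between these libraries, which may be technical.

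PD-1 is induced on T cells by antigen receptor signalling, binds PD-L1 and PD-L2, and recruits phosphatases through tyrosines in its cytoplasmic tail that dampen signalling from the antigen receptor and CD28. TIM-3 binds galectin-9, CEACAM1, HMGB1 and phosphatidylserine, and is found on T cells that have met antigen for long periods as well as on macrophages and dendritic cells. CD8+ T cells that carry both receptors are commonly described as exhausted or terminally differentiated in tumours.

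The gene table holds the 6467 genes with an authors' q-value under 0.05 out of 17077 tested (37.9%), with between 8484736 and 9403710 estimated reads a library in those genes. Of the 6467, 2734 were higher and 3733 lower in the αPD-1-IL-15-R group. The sorted label was checked against marker genes, of which only table genes can be counted. Of 10 CD8+ T cell markers, 4 were in the table, all 4 higher in the authors' deposited table, and their summed TPM (a transcript level scaled to gene length and library total) was 1853 to 2222 in αPD-1-IL-15-R libraries and 668 to 1805 in PBS libraries. Cd8a and Cd3e are outside the table. All 13 macrophage markers were in it and lower, with summed TPM of 393 to 1256 in αPD-1-IL-15-R libraries and 3468 to 4778 in PBS libraries. Dendritic cell markers (11 of 12 in the table, 10 lower and Batf3 higher) summed to 275 to 697 TPM in αPD-1-IL-15-R libraries and 2606 to 3465 TPM in PBS libraries. Of 10 natural killer cell markers, 9 were in the table, 7 higher and 2 lower. They summed to 1738 to 2874 TPM in αPD-1-IL-15-R libraries and 539 to 862 TPM in PBS libraries. Most of the αPD-1-IL-15-R sum was 1 gene, Gzma, at 1208, 1568 and 2381 TPM in αPD-1-IL-15-R libraries 1 to 3. In PBS libraries 1 to 3 Gzma had 86.6, 277 and 185 TPM, so the higher sum cannot be read as a rise of the whole list. The other lists had 10 of 10 fibroblast markers in the table (9 lower, and Thy1, which T cells also express, higher), 5 of 7 endothelial markers (all lower), 1 of 7 tumour epithelial markers (higher), 1 of 6 CD4+ T cell markers (lower) and 0 of 7 B cell markers. Cd209a, a dendritic cell marker, and Lum, a fibroblast marker, were at 0 TPM in αPD-1-IL-15-R library 3 alone, and no other marker in the table was at 0 in any library. The part of other cells in the values of Pdcd1 and Havcr2 was not tested. In such bulk libraries, fewer cells of a type and less RNA per cell cannot be told apart.

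The promoters of the 2 genes are shown because both are read below against transcription factors known to act there. Each line gives the 250 bases before the annotated start, 5′ to 3′ on the gene's own strand, from RefSeq on GRCm38.p6: Pdcd1 at chr1:94052554-94052803 on the minus strand and Havcr2 at chr11:46454681-46454930 on the plus strand. Capitals mark matches to motifs searched on both strands.
Pdcd1: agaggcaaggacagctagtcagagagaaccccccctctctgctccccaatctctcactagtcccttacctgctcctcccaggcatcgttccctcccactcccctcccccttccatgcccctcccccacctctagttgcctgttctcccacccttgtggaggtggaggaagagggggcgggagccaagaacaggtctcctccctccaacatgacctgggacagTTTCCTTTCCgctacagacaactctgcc
Havcr2: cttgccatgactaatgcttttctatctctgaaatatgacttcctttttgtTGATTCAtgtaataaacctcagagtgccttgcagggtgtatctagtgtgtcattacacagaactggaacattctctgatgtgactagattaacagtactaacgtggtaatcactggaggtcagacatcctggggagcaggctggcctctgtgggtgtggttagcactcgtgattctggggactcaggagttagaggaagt
The NFAT core GGAAA matched in Pdcd1 as 2 adjoining copies of its reverse complement, starting 28 and 23 bases before the start, and had 0 matches in Havcr2, while 55.6% of 32851 promoter windows of this length held it. The AP-1 motif TGANTCA matched once in Havcr2, starting 200 bases before the start, and 0 times in Pdcd1; 6.7% of windows held it. The STAT motif TTCNNNGAA (in 7.0% of windows), the NR4A motif AAAGGTCA (1.3%) and the T-box motif GGTGTGA (3.3%) had 0 matches in either window, and none of these motifs overlapped another. A match is a run of letters in this window and says nothing of binding.

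Pdcd1 was an abundant transcript with a higher level in every αPD-1-IL-15-R library than in any PBS library, but by a small margin at its edge. It had 311, 417 and 385 TPM in αPD-1-IL-15-R libraries 1 to 3, against 119.6, 303 and 201 TPM in PBS libraries 1 to 3. The groups did not overlap, yet the lowest αPD-1-IL-15-R library stood only 2.86% above PBS library 2, whereas PBS library 1 was lowest of all. Among table genes, 26.4% had αPD-1-IL-15-R libraries all above PBS libraries in TPM and 57.6% had them all below. The mean was 371 ± 54.2 TPM in αPD-1-IL-15-R libraries and 208 ± 91.8 TPM in PBS libraries (SD, n = 3 each). Genes were ranked by TPM among the 6468 with values, the table genes and Havcr2. There Pdcd1 lay within the top 3.03% to 3.74% of αPD-1-IL-15-R libraries and the top 3.94% to 8.81% of PBS libraries. Genes outside the table were not ranked, and table genes held 57.8% to 65.1% of a library's TPM.

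Havcr2 was present at a lower level than Pdcd1 in every library and its groups overlapped. It had 105.4, 144 and 122 TPM in αPD-1-IL-15-R libraries 1 to 3, against 36.0, 119.1 and 79.1 TPM in PBS libraries 1 to 3. PBS library 2 lay above αPD-1-IL-15-R library 1, and PBS library 1 was again the lowest. The mean was 124 ± 19.3 TPM in αPD-1-IL-15-R libraries and 78.1 ± 41.5 TPM in PBS libraries (SD, n = 3 each). Its rank by TPM, among the same genes as for Pdcd1, was between 475 and 658 in αPD-1-IL-15-R libraries and between 621 and 1796 in PBS libraries. The unnamed row of read counts under its TPM values was taken as Havcr2 because its reads per TPM were 1.475 to 1.477 times those of Pdcd1 in all 6 libraries.

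Cd8b1, which encodes the β chain of the sorted CD8 receptor, followed the same order of libraries within each group. It had 822, 1024 and 870 TPM in αPD-1-IL-15-R libraries 1 to 3, against 315, 892 and 518 TPM in PBS libraries 1 to 3. PBS library 2 was above 2 of the 3 αPD-1-IL-15-R libraries, so the groups overlapped. All 3 genes therefore had library 2 as the highest of each group and library 1 as the lowest.

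**Figure D1:**
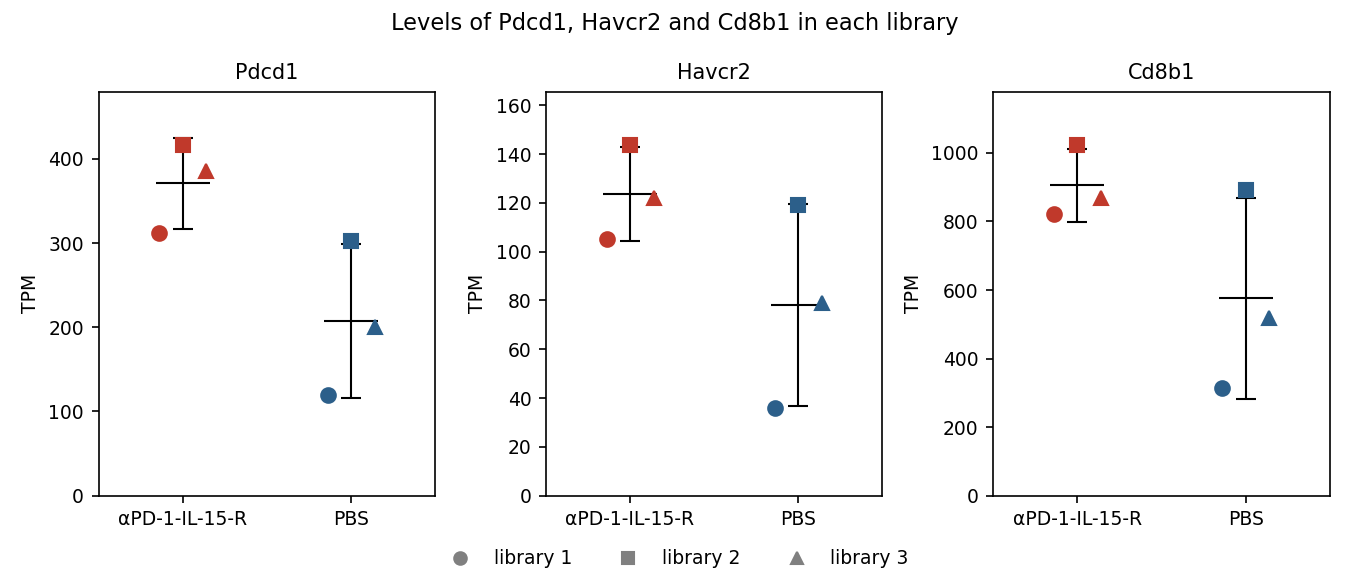
TPM of Pdcd1, Havcr2 and Cd8b1 (vertical axes, from 0) in αPD-1-IL-15-R libraries on the left of each panel and PBS libraries on the right; symbols are libraries, horizontal lines the means and bars the SD of 3 libraries. PBS library 1 is the lowest point in every panel, and PBS library 2 reaches the αPD-1-IL-15-R points for Havcr2 and Cd8b1 but not for Pdcd1.

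The spread among PBS libraries was wide for both receptor genes. The highest PBS library exceeded the lowest 2.53-fold for Pdcd1, 3.30-fold for Havcr2 and 2.83-fold for Cd8b1, while the median over table genes was 1.56-fold. A wider PBS spread than that of Pdcd1 was found in 10.3% of table genes, and wider than that of Havcr2 in 3.23%. Among αPD-1-IL-15-R libraries the highest exceeded the lowest 1.34-fold for Pdcd1, 1.37-fold for Havcr2 and 1.25-fold for Cd8b1, near the table's median of 1.34-fold. Counting error was small beside this: Pdcd1 had 2555 to 9188 reads and Havcr2 1136 to 4680 reads a library, so the relative counting error was at most 2.97%, against a coefficient of variation of 44.2% for Pdcd1 and 53.2% for Havcr2 among PBS libraries.

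The comparison of αPD-1-IL-15-R with PBS asks whether the RNA of these receptors changed under an antibody that binds one of them. In counts normalised with the authors' scaling, Pdcd1 had 6914, 10056 and 9059 reads in αPD-1-IL-15-R libraries 1 to 3, against 2358, 5730 and 3534 reads in PBS libraries 1 to 3. The mean was 2.24-fold higher, or 1.16 in log2 (SE 0.35). The edgeR quasi-likelihood test gave an adjusted p of 0.0716, just short of the threshold of 0.05. The TPM means of Pdcd1, 371 and 208, stood closer together than its normalised means, 8676 and 3874. The authors' deposited table gives Pdcd1 a log2 change of 1.16 with a q-value of 0.00684. DESeq2 and limma-voom called it, with adjusted p of 0.0114 and 0.041. So did edgeR without αPD-1-IL-15-R library 1 (log2 change 1.30, adjusted p = 0.0392) or without PBS library 2 (1.56, adjusted p = 0.0372). With the replicate number as a term, edgeR also called it (1.24, adjusted p = 0.0336), among 4337 genes. None of these calls is independent of the authors' q-value, by which Pdcd1 entered the table. DESeq2 called 6351 of the 6468 genes and limma-voom 4737. By edgeR, 37.2% of the 6252 fitted genes were called, 16.5% higher and 20.7% lower. That count rests on few libraries: edgeR called 4545 genes without αPD-1-IL-15-R library 1 and 3016 without PBS library 2, but 0 without any 1 of the other 4 libraries, where 4221 to 4884 genes had an unadjusted p under 0.05.

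Havcr2 did not pass by edgeR, DESeq2 or limma-voom when fitted on the 2 groups alone. It had 3450, 5122 and 4235 normalised reads in αPD-1-IL-15-R libraries 1 to 3, against 1048, 3329 and 2055 normalised reads in PBS libraries 1 to 3. Its log2 change stood at 0.99 (SE 0.43, edgeR adjusted p = 0.172), and the adjusted p was 0.0927 by DESeq2 and 0.107 by limma-voom. With the replicate number as a term, edgeR gave 1.13 (adjusted p = 0.0471). The TPM means of Havcr2, 124 and 78.1, stood closer together than its normalised means, 4269 and 2144. In the authors' deposited table of notes, Havcr2 has a log2 change of 0.99, a p-value of 0.02 and a q-value of 0.06. Without PBS library 1 the log2 change of Havcr2 was 0.67, and without PBS library 2 it was 1.46 (edgeR adjusted p = 0.218 and 0.0586). The sign of both genes depended on the scaling. With libraries scaled on the TCR signalling genes, Pdcd1 stood at -0.16 (SE 0.24) and Havcr2 at -0.27 (SE 0.24). That scaling used 23 table genes, all of them higher, which by itself lowers both values. The change of sign therefore cannot be read as a fall of either gene.

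**Figure D2:**
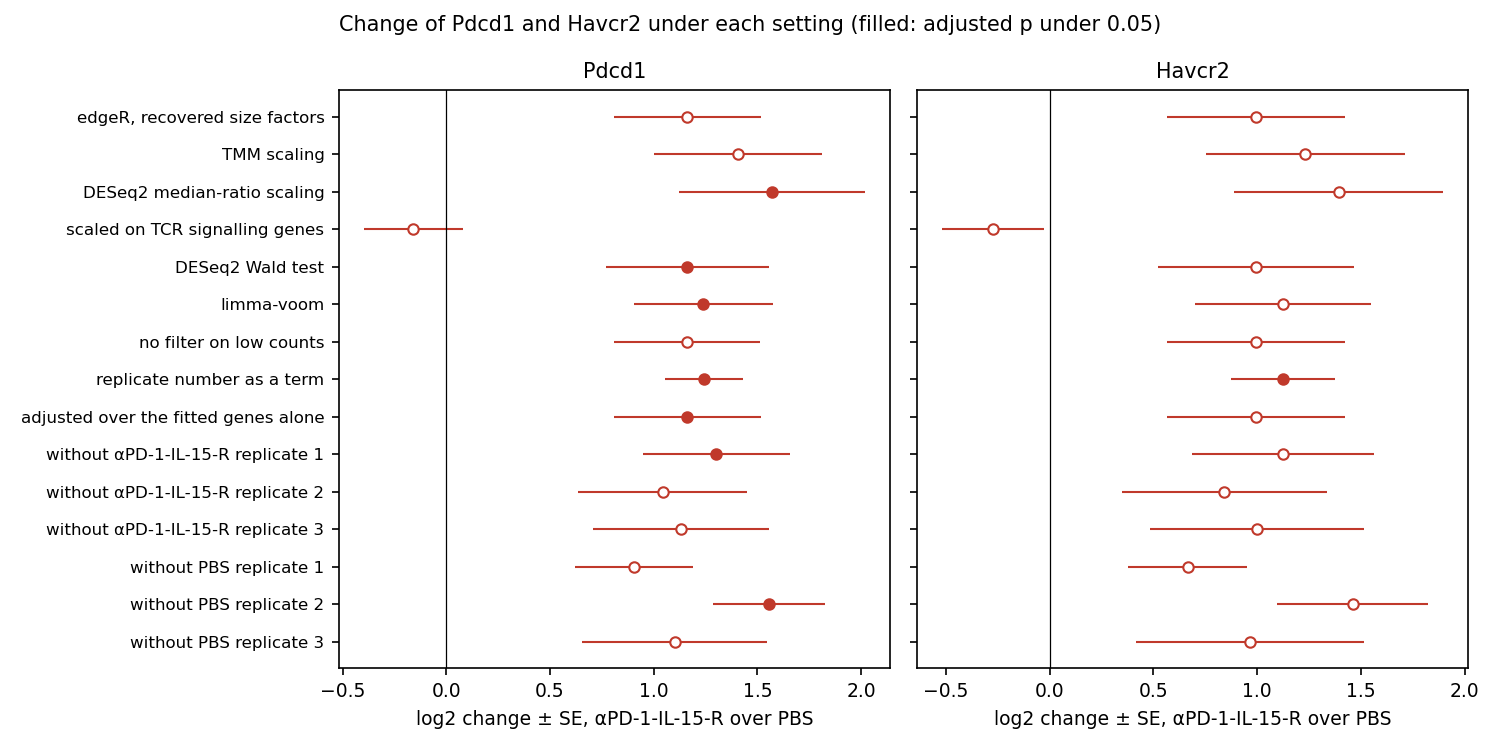
Log2 change of Pdcd1 and Havcr2 (horizontal axes, with SE bars) under each setting listed down the vertical axis; filled points have an adjusted p under 0.05. Pdcd1 lies between 0.91 and 1.57 and Havcr2 between 0.67 and 1.46 in all settings but the one scaled on T cell receptor (TCR) signalling genes, where they are at -0.16 and -0.27.

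Set against Cd8b1, neither receptor gene differed between the groups beyond the spread of its libraries. For each Cd8b1 transcript there were 0.379, 0.407 and 0.443 Pdcd1 transcripts in αPD-1-IL-15-R libraries 1 to 3, against 0.379, 0.339 and 0.387 in PBS libraries 1 to 3. The ranges overlapped, and αPD-1-IL-15-R library 1 and PBS library 1, the lowest of their groups in Pdcd1 TPM, had nearly the same ratio. The mean log2 difference was 0.15, a 1.11-fold higher ratio, and the 9 differences between single libraries of the groups ran from -0.03 to 0.38 (two-sided exact permutation test, p = 0.30, adjusted over 3 ratios p = 0.60). With 3 against 3 libraries this exact test cannot go below p = 0.10.

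Havcr2 per Cd8b1 was 0.128, 0.141 and 0.1403 in αPD-1-IL-15-R libraries 1 to 3, against 0.114, 0.133 and 0.153 in PBS libraries 1 to 3. Here PBS library 3 was the highest and PBS library 1 the lowest of all 6. The mean log2 difference was 0.04, with the 9 library pairs between -0.25 and 0.30 (exact permutation p = 0.80, adjusted p = 0.80).

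The balance between the receptors was also tested. Havcr2 per Pdcd1 was 0.338, 0.345 and 0.317 in αPD-1-IL-15-R libraries 1 to 3, against 0.301, 0.393 and 0.394 in PBS libraries 1 to 3. The αPD-1-IL-15-R libraries lay inside the PBS range. The log2 difference was -0.11, with pairs between -0.32 and 0.20 (exact permutation p = 0.40, adjusted p = 0.60).

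**Figure D3:**
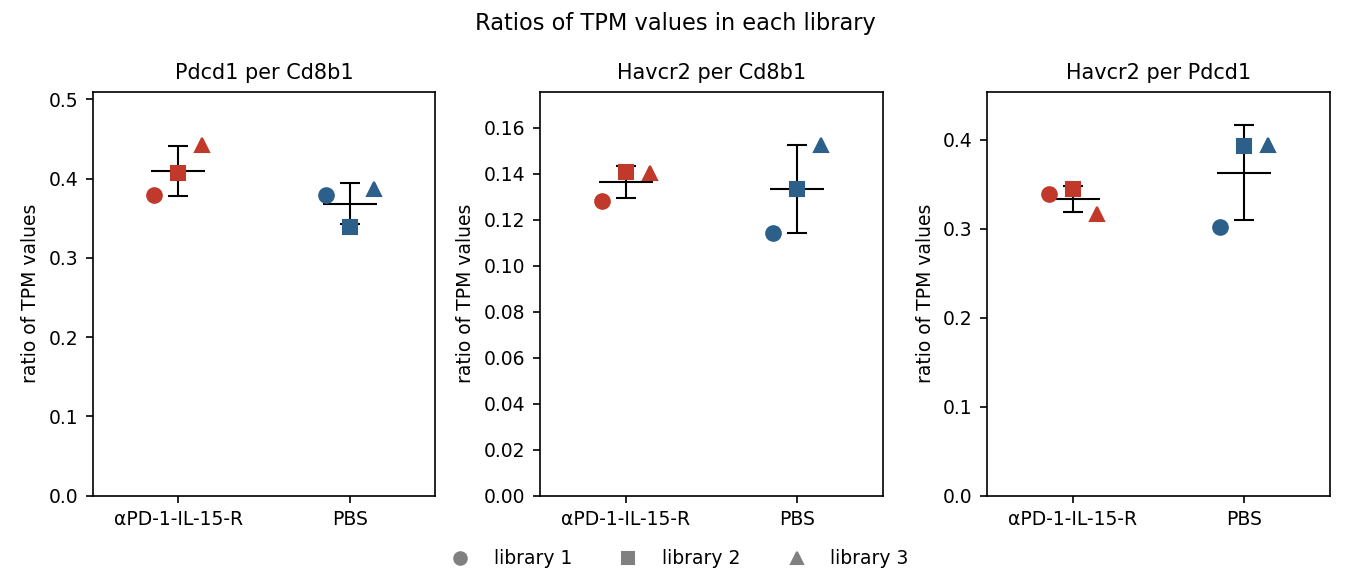
Ratios of TPM values (vertical axes, from 0) for Pdcd1 per Cd8b1, Havcr2 per Cd8b1 and Havcr2 per Pdcd1, with αPD-1-IL-15-R libraries left and PBS libraries right; symbols are libraries, lines the means and bars the SD of 3 libraries. The groups overlap in each panel, with Pdcd1 per Cd8b1 at 0.379 to 0.443 in αPD-1-IL-15-R libraries and 0.339 to 0.387 in PBS libraries.

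The sign of these ratios depended on the T cell genes used below the line. Those genes were table genes alone, all of them higher, which by itself lowers the ratios. Against the geometric mean of the 23 TCR signalling genes in the table, Pdcd1 stood at 2.67, 3.05 and 2.84 in αPD-1-IL-15-R libraries 1 to 3 and at 3.37, 3.01 and 3.13 in PBS libraries 1 to 3, a log2 difference of -0.15 (exact permutation p = 0.20). Havcr2 stood at 0.903, 1.051 and 0.899 in αPD-1-IL-15-R libraries and at 1.017, 1.182 and 1.234 in PBS libraries, a log2 difference of -0.27 (exact permutation p = 0.20). Against the 4 CD8+ T cell markers the log2 differences were -0.04 for Pdcd1 and -0.15 for Havcr2 (exact permutation p = 0.70 and 0.50). In the authors' deposited table each of the 23 TCR signalling genes was higher (16.0% of all genes tested were), at a median log2 change of 1.25 against -0.62 over the whole table, and relative to Cd8b1 13 of the other 22 were higher with no overlap and 9 overlapped, where 6.48% of table genes were higher and 58.0% lower without overlap. Of these 23, edgeR called Txk, a kinase of the Tec family, at 2.37 (SE 0.46), Sit1, a transmembrane adaptor, at 1.71 (SE 0.33), and Skap1, a cytosolic adaptor, at 1.61 (SE 0.34), where the adjusted p by edgeR was between 0.042 and 0.0444. Next in size were Prkcq, the gene of protein kinase C theta, at 1.55 (SE 0.42) and Rasgrp1, an activator of Ras, at 1.53 (SE 0.45), which edgeR did not call (adjusted p = 0.0587 and 0.0669). Without αPD-1-IL-15-R library 1 edgeR called 12 of the 23, beside 1506 genes higher and 3039 lower in all. Without PBS library 2 it called 22, beside 1649 and 1367 genes in all, but it called 0 without any 1 of the other 4 libraries. In the fit of all 6 libraries edgeR called 16.5% of fitted genes higher, so by that fit alone 3 of 23 is no larger a share. DESeq2 called 19 of the 23 and limma-voom 16, all higher, beside 2677 and 1889 genes called higher in all.

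Other inhibitory receptors of T cells differed in both directions, with none called by edgeR. Of 14 listed besides the 2 genes, 7 were in the authors' deposited table, 6 higher and 1 lower, at a median log2 change of 1.03. The edgeR fit called 0 of the 7, of which 6 had an unadjusted p under 0.05, as did 6127 of the 6252 fitted genes. DESeq2 called 4 (3 higher and 1 lower), beside 6351 of 6468 genes in all. By limma-voom 3 were called, beside 4737 genes in all. Without PBS library 2 edgeR called 6 of the 7, all higher, beside 1649 genes higher and 1367 lower in all. Without αPD-1-IL-15-R library 1 it called 1 each way, beside 1506 genes higher and 3039 lower in all. Ctla4, Lag3, Tigit, Btla, Cd200r1, Klrg1 and Cd5 are outside the table and have no level here. Cd244a, the gene of the receptor 2B4, had 29.7, 40.2 and 33.0 TPM in αPD-1-IL-15-R libraries 1 to 3, against 7.77, 21.8 and 12.9 TPM in PBS libraries 1 to 3, which did not overlap (log2 change 1.60, SE 0.40, edgeR adjusted p = 0.052). Pvrig, whose product binds CD112, had 20.2, 29.2 and 23.5 TPM in αPD-1-IL-15-R libraries, against 5.72, 20.6 and 11.2 TPM in PBS libraries, which by edgeR is 1.31 in log2 (SE 0.43, adjusted p = 0.0818). PBS library 2 lay above αPD-1-IL-15-R library 1 for Pvrig.

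Lair1, a collagen receptor of many leukocytes, was the lower one, at 5.05, 3.96 and 3.06 TPM in αPD-1-IL-15-R libraries 1 to 3 and 7.13, 9.31 and 12.1 TPM in PBS libraries 1 to 3, without overlap (log2 change -0.88, SE 0.25, edgeR adjusted p = 0.062). Relative to Cd8b1, 2 of the 7 (Cd244a and Pvrig) were higher in every αPD-1-IL-15-R library and Lair1 was lower in every one, where 6.48% of table genes were higher and 58.0% lower in this way. Without αPD-1-IL-15-R library 1 these counts were 3 and 2. Cd160, Cd96, Entpd1 and Vsir overlapped, as did Pdcd1 and Havcr2. A higher log2 difference per Cd8b1 than that of Pdcd1 was found in 10.3% of 6172 table genes, and their overall median was -1.62.

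The authors' deposited table held 4 of 6 ligand genes of the 2 receptors. Of these, edgeR called 1 each way, beside 16.5% of fitted genes called higher and 20.7% called lower. It called 3 higher and 1 lower without PBS library 2, beside 1649 genes higher and 1367 lower in all. It called 0 without αPD-1-IL-15-R library 2 or 3 or PBS library 1 or 3. Hmgb1, which encodes a nuclear protein that TIM-3 binds once released, rose to 280.2, 263 and 279 TPM in αPD-1-IL-15-R libraries 1 to 3, against 240.4, 232 and 271 TPM in PBS libraries 1 to 3 (log2 change 0.46, SE 0.09, edgeR adjusted p = 0.043). In TPM, PBS library 3 lay above αPD-1-IL-15-R library 2. Ceacam1, whose product binds TIM-3 and is also made by myeloid and epithelial cells, fell to 2.41, 1.09 and 1.16 TPM in αPD-1-IL-15-R libraries, against 9.86, 7.95 and 11.5 TPM in PBS libraries, without overlap (log2 change -2.33, SE 0.38, edgeR adjusted p = 0.0403). The macrophage marker sums given above were lower in the same libraries, and the part of those cells in the Ceacam1 values was not tested.

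Pdcd1lg2, the gene of PD-L2, had 18.7, 23.2 and 23.8 TPM in αPD-1-IL-15-R libraries 1 to 3, against 7.58, 18.3 and 13.6 TPM in PBS libraries 1 to 3. The lowest αPD-1-IL-15-R library and the highest PBS library nearly met, and the log2 change was 1.06 (SE 0.33, edgeR adjusted p = 0.0744). Relative to Cd8b1 its log2 difference was 0.04. Lgals9, the gene of galectin-9, stood at 0.31 in normalised counts (SE 0.11, edgeR adjusted p = 0.0919). Its TPM overlapped and showed no rise, with means of 118.45 in αPD-1-IL-15-R libraries and 119.25 in PBS libraries. It stood at -0.78 relative to Cd8b1. On that scale 0 of the 4 ligand genes were higher without overlap, 2 (Lgals9 and Ceacam1) were lower and 2 overlapped, where 6.48% of table genes were higher and 58.0% lower. Cd274, the gene of PD-L1, and Cd80 are outside the table, and so are all 4 other TIM family genes listed.

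Genes whose products act beneath the 2 receptors or the antigen receptor they oppose were higher as far as they stood in the table. Of 18 listed, 10 were in the authors' deposited table, all higher, at a median log2 change of 1.17, where 2734 of all table genes were higher and 3733 lower. The edgeR fit called 2, a share near the 16.5% of fitted genes called higher. DESeq2 called 7 and limma-voom 5, all higher, beside 2677 and 1889 genes called higher in all. Without PBS library 2 edgeR called 9, beside 1649 genes higher and 1367 lower in all. Without αPD-1-IL-15-R library 1 it called 4, beside 1506 genes higher and 3039 lower in all, and without any 1 of the other 4 libraries 0. Sla2, an adaptor that promotes loss of the TCR complex from the surface, rose to 88.1, 105.3 and 88.5 TPM in αPD-1-IL-15-R libraries 1 to 3, against 21.0, 56.9 and 34.9 TPM in PBS libraries 1 to 3, with no overlap (log2 change 1.65, SE 0.37, edgeR adjusted p = 0.0459). Pag1, which anchors the kinase Csk that restrains Lck, rose by 1.11 (SE 0.24, edgeR adjusted p = 0.0443). Sh2d1a, the gene of the adaptor SAP, stood at 1.52 (SE 0.42, edgeR adjusted p = 0.0601) and Themis, a regulator of TCR signalling, at 1.26 (SE 0.46, edgeR adjusted p = 0.102). Relative to Cd8b1, 3 of the 10 (Lck, Sla2 and Sh2d1a) were higher without overlap, as were 6.48% of table genes. Ptpn6 and Ptpn11, the genes of the phosphatases SHP-1 and SHP-2, are outside the table, and so is Bag6, whose product binds the tail of TIM-3.

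**Figure D4:**
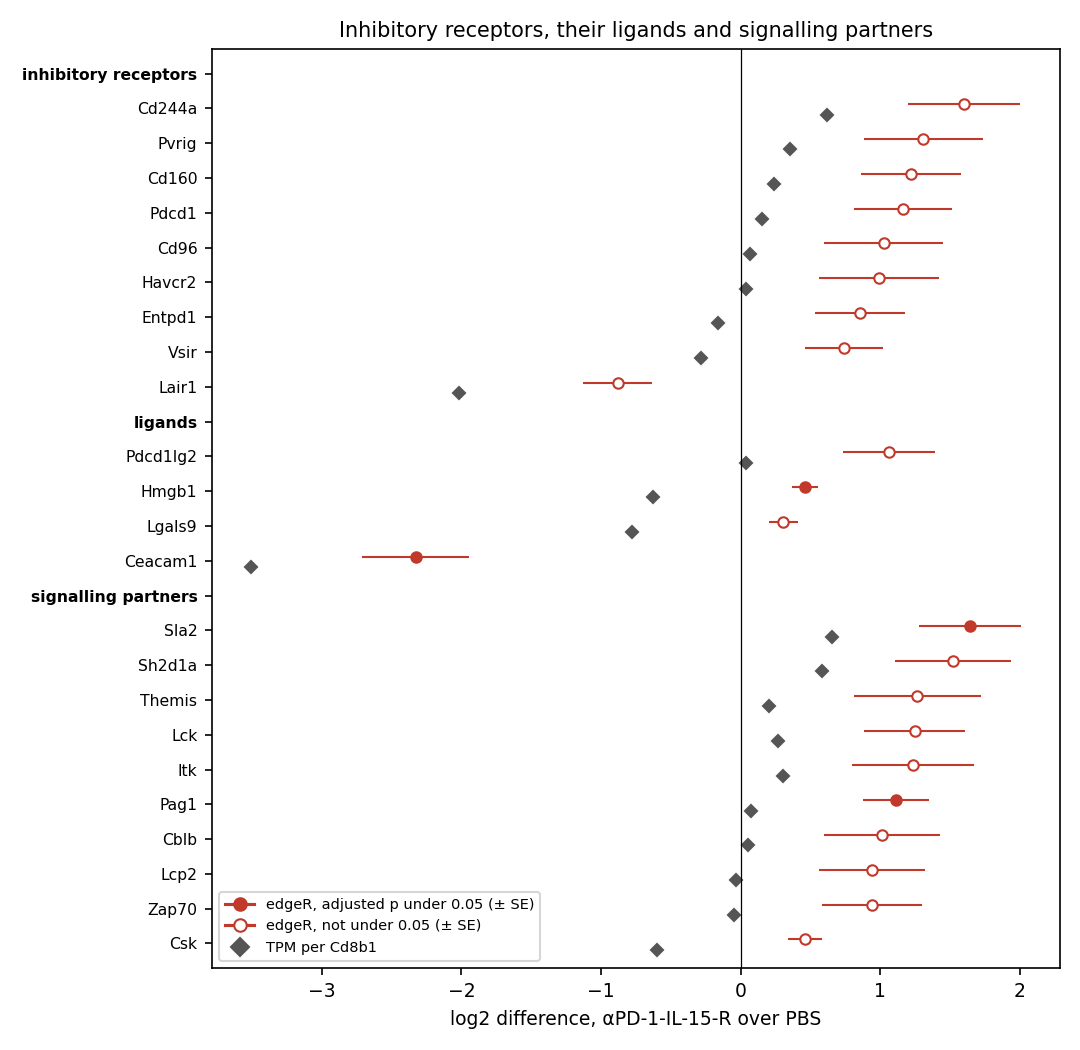
Log2 differences of αPD-1-IL-15-R over PBS (horizontal axis) for inhibitory receptors, ligands and signalling partners (vertical axis); circles are edgeR log2 changes with SE bars, filled where the adjusted p is under 0.05, and diamonds are differences of TPM per Cd8b1. Pdcd1 and Havcr2, at 1.16 and 0.99 by edgeR, sit at 0.15 and 0.04 per Cd8b1, between Cd244a at 0.62 and Lair1 at -2.01.

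Transcription factors known to act at Pdcd1 or Havcr2 moved in both directions. Of 35 listed, 17 were in the authors' deposited table, 12 higher and 5 lower, where 2734 of all table genes were higher and 3733 lower. The edgeR fit called 6 higher and 3 lower, beside 16.5% and 20.7% of all fitted genes. These counts were 8 and 3 without αPD-1-IL-15-R library 1, beside 1506 genes higher and 3039 lower in all. They were 11 and 2 without PBS library 2, beside 1649 and 1367 genes in all, and 0 without any 1 of the other 4 libraries. Eomes, a T-box factor of effector and memory cells, rose to 34.5, 34.1 and 40.4 TPM in αPD-1-IL-15-R libraries 1 to 3, against 6.62, 14.7 and 10.7 TPM in PBS libraries 1 to 3, without overlap (log2 change 2.08, SE 0.30, edgeR adjusted p = 0.0403). Batf3 rose by 2.13 (SE 0.37), Batf, a partner of AP-1 and IRF4, by 1.30 (SE 0.28), Tcf7, the gene of the stem-like factor TCF-1, by 1.14 (SE 0.14), Nfil3 by 0.72 (SE 0.14) and Jund by 0.70 (SE 0.14), with edgeR adjusted p between 0.0403 and 0.0443.

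Bcl6, a repressor that opposes Prdm1, fell to 4.07, 3.74 and 3.38 TPM in αPD-1-IL-15-R libraries 1 to 3, against 13.8, 12.2 and 17.0 TPM in PBS libraries 1 to 3, without overlap (log2 change -1.50, SE 0.15, edgeR adjusted p = 0.0403). The AP-1 gene Jun fell by 1.77 (SE 0.37) and Maf fell by 0.98 (SE 0.23). Of those not called, Nfatc2, a calcium-driven factor downstream of the TCR, stood at 1.09 (SE 0.34), Tbx21, the gene of T-bet, at 1.07 (SE 0.34), Fos at -0.64 (SE 0.17) and Rbpj at -0.38 (SE 0.14). Relative to Cd8b1, 2 of the 17 (Eomes and Batf3) were higher without overlap, 5 were lower without overlap and 10 overlapped, where 6.48% of table genes were higher and 58.0% lower. Tox, Tox2, Nfatc1, Irf4, Prdm1 and the 3 Nr4a genes are outside the table.

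Genes of the IL-15 pathway, the cytokine carried by the antibody, were measured beside them. Of 15 listed, 10 were in the authors' deposited table, 8 higher and 2 lower, where 2734 of all table genes were higher and 3733 lower. The edgeR fit called 4 higher and 2 lower, beside 16.5% and 20.7% of all fitted genes. Without αPD-1-IL-15-R library 1 it called 7 higher and 2 lower, beside 1506 and 3039 genes in all. Without PBS library 2 it also called 7 and 2, beside 1649 and 1367 genes in all, and without any 1 of the other 4 libraries 0. Those called were Bcl2, a survival gene, at 2.15 (SE 0.40), the feedback inhibitor genes Socs2 at 1.89 (SE 0.36) and Socs1 at 1.32 (SE 0.16), the kinase gene Jak1 at 0.80 (SE 0.19), Socs3 at -0.77 (SE 0.17) and Osm at -1.05 (SE 0.20). Il2rb, the receptor chain shared by IL-2 and IL-15, had 1036, 1278 and 1134 TPM in αPD-1-IL-15-R libraries 1 to 3, against 262, 789 and 478 TPM in PBS libraries 1 to 3, with no overlap (log2 change 1.54, SE 0.40, edgeR adjusted p = 0.0562). Cish, a feedback inhibitor gene driven by STAT5, stood at 1.39 (SE 0.39, edgeR adjusted p = 0.0623), and Stat5a, given in the notes sheet alone, has a log2 change of 0.52 and a q-value of 0.07 in the authors' deposited table of notes. Relative to Cd8b1 the log2 difference of Il2rb was 0.53 and the groups still did not overlap, which held for 4 of the 10 genes on the higher side and 2 on the lower side, against 6.48% and 58.0% of table genes.

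**Figure D5:**
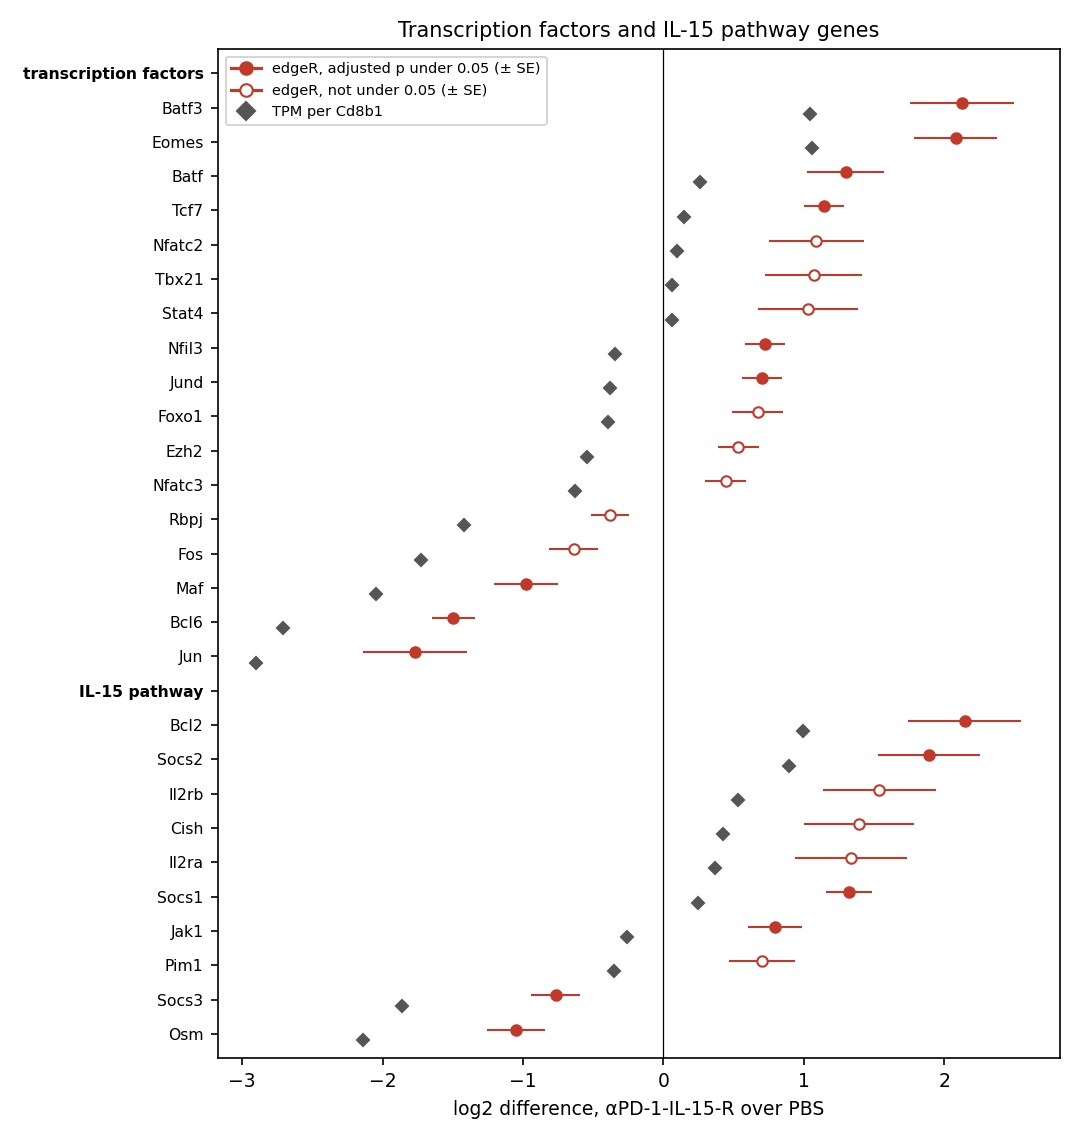
Log2 differences of αPD-1-IL-15-R over PBS (horizontal axis) for transcription factors and IL-15 pathway genes (vertical axis); circles are edgeR log2 changes with SE bars, filled where the adjusted p is under 0.05, and diamonds are differences of TPM per Cd8b1. Eomes, Batf3, Bcl2 and Socs2 lie at 0.89 to 1.06 per Cd8b1, and Jun and Bcl6 at -2.90 and -2.71.

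Likeness of pattern was measured as the root mean square difference over the 6 libraries between log2 normalised counts, each gene centred on its own mean, among 5441 genes with a mean of at least 50 normalised reads. The 8 genes most like Pdcd1 were Rhof, B4galnt1, Tbx21, Tmem71, Rinl, Lcn4, Slc44a2 and Plac8, at 0.033 to 0.066 on the log2 scale, while the median over all candidates was 0.955. Cd8b1 ranked 106 and Havcr2 ranked 200 in likeness to Pdcd1, at 0.116 and 0.145. The 8 genes most like Havcr2 were Slc37a1, Arhgap4, Cblb, Cd96, Dock2, Aim2, Itgal and Nbeal2, at 0.057 to 0.089, and Cd8b1 ranked 50 and Pdcd1 ranked 76. In a column of the deposited gene table in which the authors marked single genes by hand, Pdcd1 is 1 of 24 genes marked as effector, 9 are marked as stem-like, and Tbx21 is the 1 gene marked as exhausted.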

How the data were processed

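RNA of sorted CD8+ cells was extracted and sequenced by a service provider (BGI), and HISAT2 and RSEM are named in the submitters' processing notes. The sources used here name no genome build. The deposited gene table gives, per the file headers, estimated counts, FPKM and TPM per library, and the authors' log2 change, p-value and q-value per gene. It holds 6467 of 17077 genes, all with a q-value up to 0.0499. Havcr2 has TPM and read counts in the deposited notes sheet only. A further 12 columns of log10 values in the deposited table were not used.

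The authors' size factors were recovered from 3105 genes with over 200 reads, leaving log2 residuals with a median of 0.00010. Estimated counts were rounded and fitted with the quasi-likelihood test of edgeR 4.0.16 (R 4.3.3) using those factors, with Benjamini-Hochberg adjustment over 17077 genes. DESeq2 1.42.0 and limma-voom 3.58.1 were alternatives. The deposited table is a selection at a q-value, so its counts of changed genes are not independent of that selection. Ratios of TPM were tested on the log2 scale with two-sided exact permutation tests (scipy 1.17.1). The fit was also run on simulated counts, drawn independently for each gene and library with most genes unchanged. The genes of this table were selected as changed, so that run does not test the calls made here. Of the gene IDs, 6453 matched RefSeq. Genes named from each list were those that edgeR called and the 2 largest changes each way among the others, and for likeness the 8 nearest genes. The members and lists were chosen with earlier results of these data known.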

Additional observations from a re-analysis of the deposited data

How the results depend on the processing

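With edgeR the log2 change of Pdcd1 was 1.16. It passed the adjusted threshold with DESeq2's median-ratio scaling (1.57), the DESeq2 Wald test (1.16), limma-voom (1.24) and adjustment over the fitted genes alone (1.16), and it reversed to -0.16 when libraries were scaled on the TCR signalling genes. Havcr2 reversed to -0.27 under that scaling (SE 0.24 for each gene). The genes scaled on were table genes alone, all of them higher, which by itself lowers both values. Leaving out 1 library at a time gave 0.91 to 1.56 for Pdcd1 and 0.67 to 1.46 for Havcr2. The number of genes called was 2328, against 3944 with median-ratio scaling, 6351 with DESeq2, 4737 with limma-voom and 6114 adjusted over the fitted genes alone, and 0 to 4545 with 1 library left out. Of the calls, 44.3% were higher, against 62.7% with TMM scaling, 57.3% with median-ratio scaling and 1.2% with TCR scaling, and the median log2 change of all genes was -0.57, -0.29, -0.15 and -2.14 under those scalings. The causes were not tested.

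Per TCR signalling genes the ratios were -0.15 for Pdcd1 and -0.27 for Havcr2 (exact permutation p = 0.20 for each). Per CD8+ T cell markers they were -0.035 and -0.15 (exact permutation p = 0.70 and 0.50). Both denominators held only table genes, all of them higher, which by itself lowers these ratios. With 1 library left out, Pdcd1 per Cd8b1 was 0.09 to 0.21, Havcr2 per Cd8b1 -0.067 to 0.14 (reversed without PBS library 1) and Havcr2 per Pdcd1 -0.24 to -0.05. No FPKM alternative was made for Havcr2.

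Whether the replicate numbers pair the samples could not be settled. Deviations of same-numbered libraries correlated at 0.60, 0.602 and -0.24, and those of different-numbered libraries at -0.701 to 0.56. With 3 libraries a group, the deviations of a gene sum to 0 within the group, so these values are not independent. With the replicate number as a block, Pdcd1 was at 1.24 (edgeR adjusted p = 0.0336), Havcr2 at 1.13 (edgeR adjusted p = 0.0471) and 4337 genes were called.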
